A study of Mus musculus with 8 samples.

Results

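CD11c- microglia of mice with neuromyelitis optica (NMO) were compared with the CD11c- microglia of control mice. The comparison rests on 6 of the 8 RNA-seq libraries in the series, chosen by their population labels: 3 from NMO mice and 3 from control mice, all of the C57BL/6 strain. The libraries hold total RNA of cells sorted ex vivo with antibodies to CD11b, CD45 and CD11c, and were made with the Illumina TruSeq kit. The other 2 libraries, CD11c+ microglia of NMO mice, enter below only to show how high a gene stood in a second population of the same disease. The mice were adult; no exact age, no sex and no way in which NMO was induced are stated. Titles of the control libraries call them total microglia of unmanipulated mice while their population label calls them CD11C negative, so it is not known if control CD11c+ cells had been sorted away. The labels do not say whether the libraries of a group came from separate mice, so the p-values below measure the spread between these samples. Control libraries carry numbers from 21 to 23 and NMO CD11c- libraries numbers from 10 to 12, and any difference in handling between these series of numbers cannot be told apart from the disease.

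Microglia are the resident macrophages of the brain and spinal cord. In the healthy tissue they survey their surroundings through purinergic receptors, and their identity is held by factors such as Sall1 and by TGF-beta. NMO is an autoimmune disease in which antibodies to the water channel aquaporin-4, carried by astrocytes, fix complement, and neutrophils enter the lesions. Interferons bound to their receptors act through factors such as Stat2 and Irf9, which switch on a large set of genes against viruses and for antigen presentation. CD11c, the integrin alpha chain encoded by Itgax, marks a minor subset of microglia that expands in disease and during development.

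Between 6437516 and 6819662 reads per library were counted in genes in the NMO CD11c- group and between 7500815 and 9246061 in the controls. Levels below are CPM, counts scaled to a common library size, after scaling of the libraries to one another, and values of 3 libraries are given in the order of replicates 1 to 3. The mRNA of Csf1r, the receptor that microglia need to survive, was abundant in all 6 libraries. It stood at 13333, 11089.5 and 12507 CPM in NMO and 13012, 13088 and 11448 in control. Itgax stood at 35.9, 41.6 and 40.2 CPM in NMO CD11c-, at 30.8, 32.3 and 31.4 in control and at 190.0 and 183 in the 2 CD11c+ libraries. CD11c mRNA was thus present at a low level in both groups compared here, and the groups did not overlap (adjusted p = 0.0494). This call was lost in 14 of 18 alternative settings, other scalings, DESeq2 and voom among them. Itgam, which encodes CD11b, did not pass the test (adjusted p = 0.345), and Ptprc, which encodes CD45, rose by 0.34 ± 0.08 on the log2 scale (± standard error, SE, here and below; adjusted p = 0.0296).

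The count tables hold 41388 genes, and those that passed a filter on low counts, 11646, were tested. At an adjusted p under 0.05, 803 genes stood higher in the NMO libraries and 418 stood lower, which is 6.90% and 3.59% of the genes tested. When the fit was tried on simulated data the share of false calls was well above the nominal level. The changes were unequal in size. Among the genes that rose 288 did so at least 2-fold and 93 at least 4-fold, with a median log2 fold change of 0.71; among those that fell 52 did so at least 2-fold and 6 at least 4-fold, with a median of -0.42. The counts depend on how many control libraries enter the fit: without control replicate 1 they were 434 and 142, the lowest of the 6 fits that leave out 1 library. With all 8 libraries in 1 fit, so that the CD11c+ libraries add to the estimate of the spread, they were 360 and 86. The plot of fold change against level shows that the genes that rose cover the whole range of levels, whereas the larger decreases are few.

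**Figure D1:**
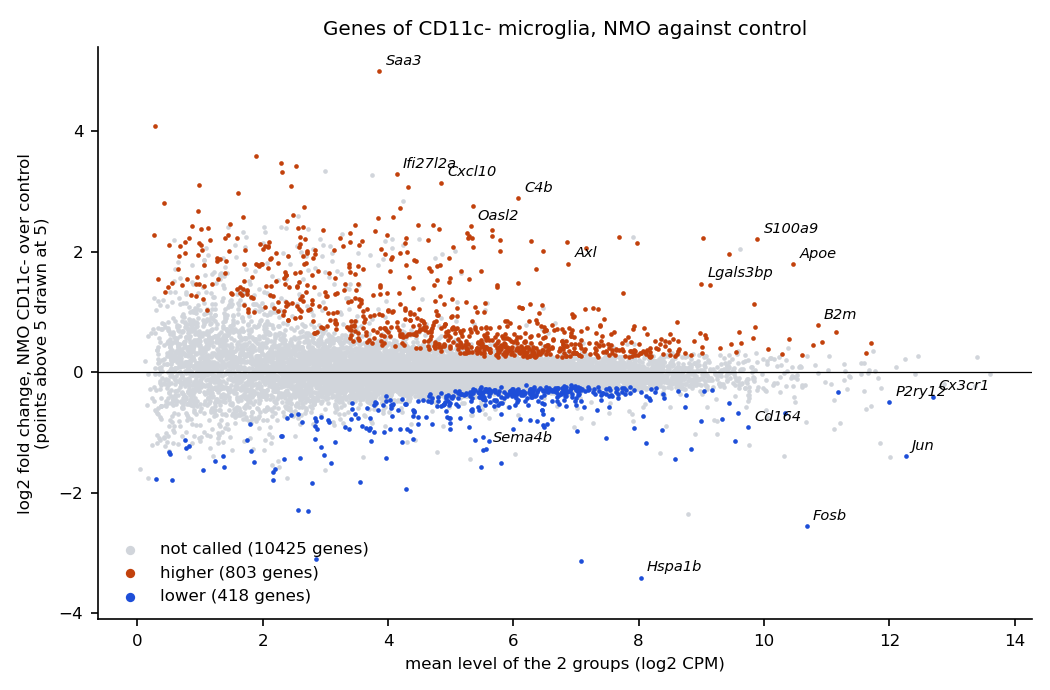
Log2 fold change of NMO CD11c- over control (vertical axis) against the mean of the 2 group means (horizontal axis, log2 CPM); each point is 1 of 11646 tested genes, in orange the 803 called higher, in blue the 418 called lower. Saa3 is drawn at the upper edge, and Hspa1b and Fosb are labelled among the larger decreases.

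Genes were then read by function, with lists that had been assembled with earlier results of these libraries known; a list's count is therefore a description and no list was tested as a whole. Every one of 45 tested type I interferon response genes (46 listed) rose, with a median log2 fold change of 1.47 against -0.006 over all tested genes, and in all 45 the 3 NMO libraries lay above the 3 controls, an arrangement seen in 17.6% of all tested genes. Heat shock chaperones lay at the opposite end, with 7 of 17 lower and 0 higher. Lists for cholesterol biosynthesis, autophagy, and glycolysis and hypoxia had 0 genes called in either direction among 21, 23 and 24 tested by edgeR, against 10.5% of all genes. At an unadjusted p under 0.05 there were 4, 5 and 9, and DESeq2 and the exact test each called 1 glycolysis and hypoxia gene and 0 in the other lists; voom called 0. The chart of list members called shows these shares for each list with 5 or more tested genes.

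**Figure D2:**
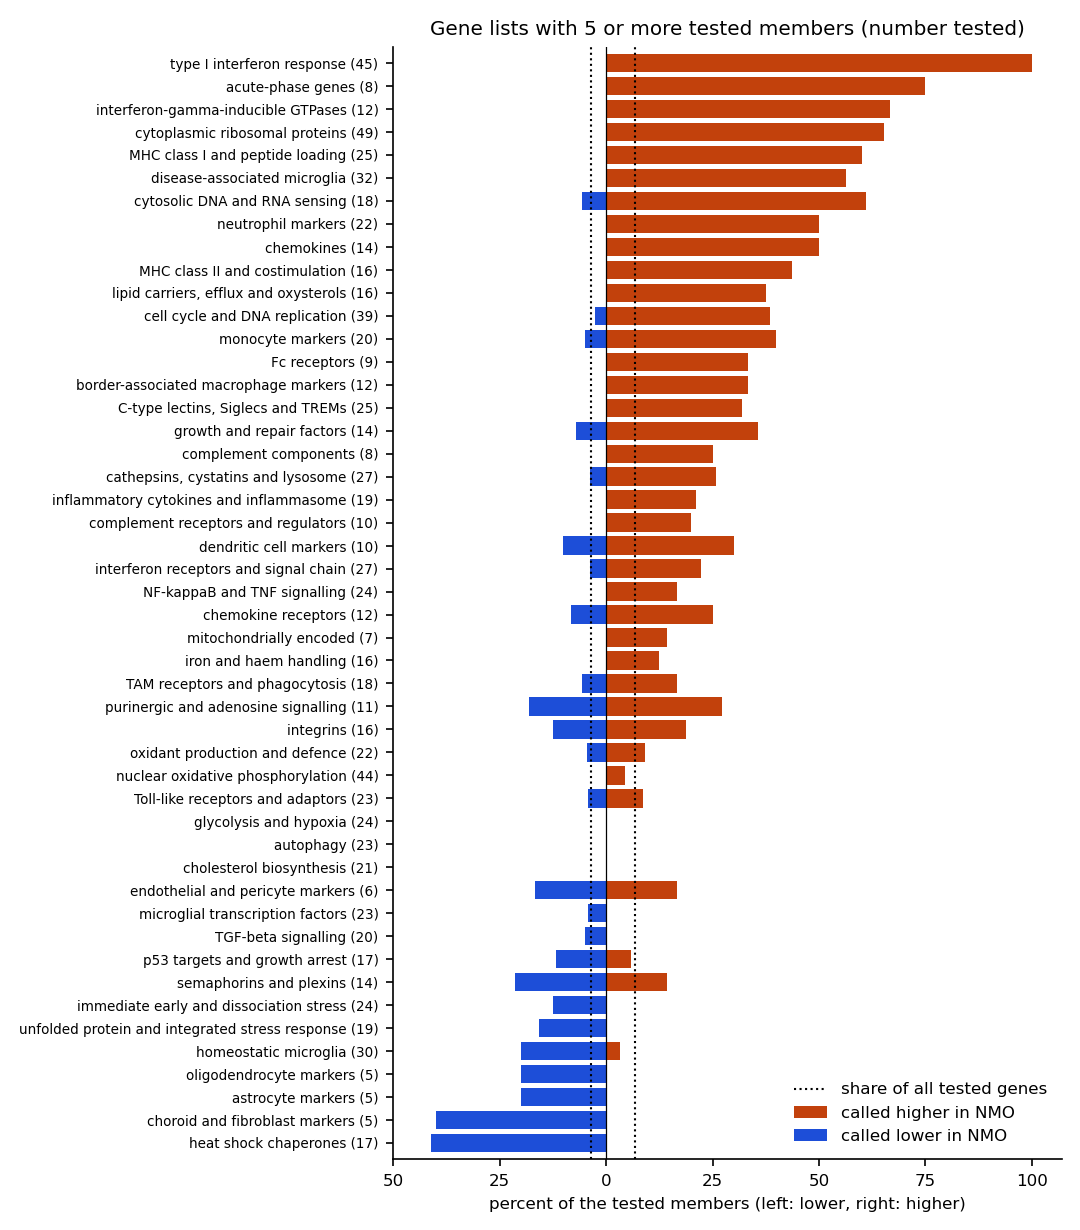
Percent of the tested members of each gene list that were called higher (orange, to the right) or lower (blue, to the left) in NMO CD11c- microglia, with the number tested in parentheses and dotted lines at the share of all tested genes (6.90% higher, 3.59% lower). The type I interferon list reaches 100% on the right and the heat shock chaperones reach the farthest to the left.

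Antiviral effectors led the response. Oasl2, a protein of the 2'-5'-oligoadenylate synthetase family, stood at 60.6, 76.6 and 65.6 CPM in the NMO libraries and at 12.7, 12.9 and 12.2 in the controls, a log2 fold change of 2.42 ± 0.11 (adjusted p = 1.72e-05). Ifit2, which binds foreign RNA and blocks its translation, was at 61.1, 70.99 and 61.7 CPM against 13.2, 11.8 and 15.5 (2.26 ± 0.12 on the log2 scale, adjusted p = 1.72e-05). Neither gene overlapped between the groups, and the 3 NMO libraries lay close together. Ifi27l2a, a small interferon-induced membrane protein, rose from 3.24 ± 0.794 CPM (mean ± SD, n = 3) to 31.9 ± 5.81 (n = 3), and Rsad2, which makes a chain-terminating nucleotide against viral polymerases, from 4.14 ± 0.733 to 24.4 ± 3.33. The mRNA of the GTPase Mx1 was at 84.3, 114 and 74.1 CPM in NMO against 16.6, 22.7 and 19.9 in control (log2 fold change 2.20 ± 0.17). Among other members Oas2 rose by 2.76, Zbp1, a sensor of Z-form nucleic acid, by 2.58, Slfn5 by 2.09, Ifit3 by 2.14, Usp18, which shuts off the receptor, by 1.69, and Isg15, a ubiquitin-like modifier, by 1.65, all on the log2 scale. The smallest changes of the list were those of Herc6 (0.31), Ddx58, which encodes the RNA sensor RIG-I (0.38), and Irf9 (0.40).

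The spread between NMO libraries was small next to these differences, and 35 of the 45 genes had their highest NMO value in replicate 2. In the CD11c+ libraries of the same disease the mean level of the 45 genes was 0.53 to 1.53 times that of NMO CD11c- microglia, with a median ratio of 0.99. Samd9l had the lowest of these ratios. Of the 45 calls, 41 to 44 were kept when any 1 of the 6 libraries was left out, and 30 with the mean of the neutrophil markers as a covariate.

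The regions just before the start of these genes were read for the letters of the interferon-stimulated response element, a sequence bound by the complex that holds Stat2 and Irf9. The letters searched were GAAANNGAA, or TTCNNTTTC on the other strand, with overlapping matches allowed, in the 250 bases before each start in the RefSeq promoter table of assembly GRCm38.p6. The following windows of 100 bases are shown because their genes are among the effectors, chemokines, GTPases and antigen presentation genes that rose; each reads 5′ to 3′ along the gene's strand, and capitals mark the matching letters.
Rsad2: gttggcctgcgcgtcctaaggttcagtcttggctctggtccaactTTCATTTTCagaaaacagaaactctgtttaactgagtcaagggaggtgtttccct
Cxcl10: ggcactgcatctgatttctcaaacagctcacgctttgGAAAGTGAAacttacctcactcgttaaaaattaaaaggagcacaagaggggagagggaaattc
Ifit1: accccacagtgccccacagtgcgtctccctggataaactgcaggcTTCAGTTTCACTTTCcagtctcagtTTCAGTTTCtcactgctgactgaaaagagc
Isg15: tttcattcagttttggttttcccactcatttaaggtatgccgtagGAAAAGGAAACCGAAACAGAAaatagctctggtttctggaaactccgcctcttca
Oas1a: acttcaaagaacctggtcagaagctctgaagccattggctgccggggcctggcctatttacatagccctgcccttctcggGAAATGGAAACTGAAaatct
Irgm1: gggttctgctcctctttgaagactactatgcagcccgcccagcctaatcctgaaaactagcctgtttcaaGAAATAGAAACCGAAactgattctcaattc
Gbp2: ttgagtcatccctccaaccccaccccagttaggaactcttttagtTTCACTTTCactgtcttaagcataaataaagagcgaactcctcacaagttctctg
B2m: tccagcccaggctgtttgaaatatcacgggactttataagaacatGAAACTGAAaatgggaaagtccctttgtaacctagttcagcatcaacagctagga
Their positions are chr12:26456517-26456616, minus strand for Rsad2; chr5:92349040-92349139, minus strand for Cxcl10; chr19:34640735-34640834, plus strand for Ifit1; and chr4:156200842-156200941, minus strand for Isg15. The others lie at chr5:120907526-120907625, minus strand for Oas1a, at chr11:48871421-48871520, minus strand for Irgm1, at chr3:142620560-142620659, plus strand for Gbp2 and at chr2:122147503-122147602, plus strand for B2m. Isg15 and Ifit1 hold 3 matches each within the window, and in Isg15 these overlap in 1 run. The first match began 20 bases before the start in Oas1a, 30 in Irgm1 and 213 in Cxcl10.

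Of 40 promoters found for 33 of the 45 tested type I interferon genes, 16 (40%) held the letters, against 7.129% of the 32851 promoters in the table and 6.418% of those of all tested genes. The interferon-gamma-inducible GTPases held them in 7 of 9 promoters (77.78%) and MHC class I genes in 18.18% of 22. Over all 803 genes that rose the share was 12.15% of 790 promoters, and over those that fell 7.748% of 413. Homeostatic microglia genes had them in 0 of 25 promoters and neutrophil markers in 0 of 20. High shares were not limited to interferon and MHC lists. Cytoplasmic ribosomal proteins held the letters in 9 of 44 promoters (20.45%). Toll-like receptors and adaptors held them in 5 of 22 (22.73%), and border-associated macrophage markers in 4 of 14 (28.57%). A match is a run of letters and was not tested for binding, and its absence says only that these letters were not in the window.

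Parts of the interferon signal chain rose as well, although the receptors mostly did not pass the test. Stat2 was at 159, 177 and 150.4 CPM against 80.3, 85.6 and 83.7 in control (log2 fold change 0.96 ± 0.08, adjusted p = 0.000132). Irf7, the factor that amplifies interferon production, stood at 56.4, 81.5 and 61.6 against 13.2, 19.03 and 14.96. The receptor chains Ifnar1, Ifnar2 and Ifngr1 had log2 fold changes of 0.18, 0.08 and -0.01, none of which passed the test, while Ifngr2 rose by 0.34. Socs3, a feedback inhibitor of cytokine receptors, fell, with a log2 fold change of -1.15. In this list of 27 tested genes 6 were higher and 1 lower.

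Interferon-gamma-inducible GTPases, which attack membranes around intracellular pathogens, were higher in 8 of 12 tested genes (18 listed). Iigp1 rose from 1.36, 1.94 and 2.65 CPM to 9.096, 13.04 and 9.45, Gbp2 from 11.3, 9.89 and 12.3 to 21.98, 24.4 and 20.8 and Irgm1 from 61.2, 70.4 and 68.2 to 108, 116 and 113. Groups did not overlap in any of these 3 genes. The list had 2 higher genes with the neutrophil mean as a covariate, 4 without control replicate 3 and 5 without NMO replicate 2. Gbp7 and Irgm2 did not pass the test, with log2 fold changes of -0.18 and 0.04. Among sensors of DNA and RNA in the cytosol 11 of 18 were higher: Ifi204, of the interferon-inducible p200 family, rose from 13.3, 19.6 and 16.4 CPM to 77.3, 94.2 and 83.9, its relatives Ifi206 and Ifi207 by 2.75 and 2.45 on the log2 scale, and Dhx58, a relative of RIG-I, from 29.5, 33.01 and 29.7 CPM to 55.3, 67.6 and 61.6. With the neutrophil mean in the fit 4 sensors were higher. The central adaptors did not pass: Tmem173, which encodes STING, had a log2 fold change of -0.12, Cgas of 0.04 and Mavs of 0.04.

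Antigen presentation by MHC class I was higher in 15 of 25 tested genes and lower in 0, with a median log2 fold change of 0.53. B2m, the light chain of all class I molecules, stood at 2357, 2346 and 2354 CPM in NMO and 1397, 1419 and 1277 in control (log2 fold change 0.79 ± 0.08, adjusted p = 0.000583); the 3 NMO values were nearly equal. Nlrc5, the transactivator of class I genes, was at 75.04, 101 and 90.7 against 21.1, 20.5 and 24.9 (2.01 ± 0.12, adjusted p = 3.78e-05). Heavy chains rose by 1.14 (H2-D1), 0.76 (H2-K1) and 2.73 (H2-Q7), and Tap1, which pumps peptides into the endoplasmic reticulum, by 1.06. The chaperones Calr, Canx and Pdia3, which also serve other proteins, had values of -0.39, -0.24 and -0.24 that did not pass. With the neutrophil mean in the fit the list had 7 higher genes. H2-Q6 and H2-Q7 stood 2.52 times as high in the CD11c+ libraries as in NMO CD11c- microglia.

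MHC class II genes moved less far and more unevenly. Of 16 tested genes of this list 7 were higher, among them H2-Ab1 at 38.5, 48.8 and 38.2 CPM against 16.4, 26.1 and 23.7, H2-Aa at 35.6, 44.4 and 31.4 against 9.62, 21.7 and 17.7, and Cd74, the invariant chain, at 94.7, 142 and 103 against 52.03, 85.1 and 71.5. Ciita, their master regulator, rose from 0.3699, 0.645 and 1.19 CPM to 2.27, 2.58 and 2.36, a level close to the filter. Cd274, which encodes the inhibitory ligand PD-L1, rose by 0.66 and Cd83 by 0.48. The list had 1 higher gene with the neutrophil mean as a covariate, 1 with the immediate early mean, 3 with all 8 libraries and 4 without control replicate 3. The costimulatory genes Cd86 and Cd80 (0.06 and -0.31) and the peptide editor H2-DMb1 (-0.04) did not pass the test.

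Among chemokines 7 of 14 tested genes rose (24 listed), and 4 with the neutrophil mean as a covariate. Cxcl10, an attractant of T cells through Cxcr3, stood at 39.9, 67.95 and 47.1 CPM in NMO against 5.18, 4.62 and 7.81 in control (log2 fold change 3.15 ± 0.24, adjusted p = 0.00012). Ccl12 and Ccl2, attractants of monocytes, were at 108, 149.9 and 121 against 39.7, 41.3 and 34.4 and at 38.8, 70.7 and 61.1 against 26.4, 30.3 and 23.6. Ccl5 rose from 0.863, 0.645 and 1.46 CPM to 8.64, 13.8 and 9.302, and Cxcl16 by 1.06 on the log2 scale. For Cxcl13, an attractant of B cells, the 3 controls held 3 reads in all and the NMO libraries 46, a ratio of 19.2 (95% interval 6.16 to 96.4, from counting error only). Ccl3 and Ccl4, chemokines made early by activated microglia, spread widely within the groups and did not pass: Ccl4 was at 85.05, 237 and 264 CPM in NMO and 215, 168 and 141 in control. Il1b rose by 1.27 ± 0.20 on the log2 scale and its antagonist Il1rn by 1.78 ± 0.38, whereas Tnf (-0.71, adjusted p = 0.0715) and Il6 (-0.29, adjusted p = 0.555) did not pass.

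C4b, the complement component that follows C1 in the classical cascade, had 1 of the smallest p-values. It stood at 104, 127 and 127 CPM in NMO and 12.7, 19.7 and 15.6 in control, a log2 fold change of 2.89 ± 0.14 (adjusted p = 1.72e-05). The groups lay far apart, and the CD11c+ libraries were at 121 and 121. The initiating subunits did not pass the test: C1qa, C1qb and C1qc had log2 fold changes of 0.04, 0.15 and 0.15. C3 was at 68.4, 270.3 and 45.5 against 20.2, 26.6 and 38.004, with replicate 2 far above the others, and is taken up again with the neutrophil genes. Fcgr4, an activating receptor for IgG, rose from 16.6, 17.5 and 13.8 CPM to 46.99, 49.9 and 46.1, and the inhibitory Fcgr2b by 0.40. Of the C-type lectins, Siglecs and TREMs 8 of 25 rose, among them Siglec1, a sialic acid receptor induced by interferon, from 8.75, 15.6 and 15.6 to 44.9, 56.3 and 47.98, Treml2 by 1.55 and Cd300lf by 2.19; the count was 5 with the neutrophil and 4 with the immediate early mean as a covariate. Trem2 and its adaptor Tyrobp, which the microglial disease response needs, had values of 0.21 and 0.29 that did not pass. Tlr2 and Tlr1 rose by 0.48 and 0.59, and Tlr5, the receptor for flagellin, fell, with a log2 fold change of -0.76. They were the only calls among 23 tested Toll-like receptors and adaptors. The shares, 8.70% higher and 4.35% lower, were near the 6.90% and 3.59% of all tested genes.

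Genes of disease-associated microglia, the state seen around plaques and in demyelination, were higher in 18 of 32 tested genes and lower in 0, with a median log2 fold change of 0.61. Axl, a receptor for cells that expose phosphatidylserine, stood at 168, 211 and 169 CPM in NMO, 35.6, 65.2 and 56.4 in control and 556 and 434 in the CD11c+ libraries (NMO CD11c- over control 1.80 ± 0.19, adjusted p = 0.000644). Apoe, the lipid carrier, was at 1945, 2676 and 1975 against 411, 820.2 and 677. Both genes were separate between the groups, with control replicate 1 the lowest of all. Spp1, which encodes osteopontin, rose from 13.3, 8.17 and 7.15 CPM to 33.2, 30.3 and 39.3, Cst7, a cathepsin inhibitor, from 5.18, 6.77 and 3.84 to 13.04, 18.96 and 12.1, and Lgals3bp from 288, 281 and 243 to 752, 723 and 776. Clec7a, a receptor for beta-glucan, rose by 0.68 and stood at 2.49 times its CD11c- level in the CD11c+ libraries. Lpl (0.46, adjusted p = 0.0516), Cd9 (0.17), Ctsd (0.25), Itgb5 (0.04) and Cd68 (0.03) did not pass, and Gpnmb, at 0.9096, 1.21 and 1.77 CPM, was below the filter. Several list members are also interferon-induced (Lgals3bp, B2m, Cd74) or abundant in neutrophils and monocytes (Lyz2, Cybb). The list had 11 higher genes with the neutrophil mean as a covariate, 10 with the immediate early mean and 13 without control replicate 1.

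Lipid handling and lysosomal genes had median log2 fold changes of 0.11 and 0.22, and single genes rose much further. Ch25h, which makes 25-hydroxycholesterol, rose from 0.247, 1.51 and 0.5297 CPM to 9.55, 10.6 and 6.79. Abca1 and Abcg1, exporters of cholesterol, rose by 0.66 and 0.45, while the genes of cholesterol synthesis had a median log2 fold change of -0.03. Cathepsins Ctsb, Ctsl and Ctsh rose by 0.49, 0.57 and 0.40, and Ctso fell (log2 fold change -0.33). Of the lipid list 6 of 16 genes were higher and of the cathepsin and lysosome list 7 of 27, but 3 and 2 with the neutrophil mean as a covariate, and 2 and 1 with the immediate early mean. Leaving out 1 library gave 2 to 5 and 3 to 6, with both lists at their lowest without NMO replicate 3. Among growth factors Grn, which encodes progranulin, rose by 0.66, Csf1, the ligand of Csf1r, by 0.64 and Pdgfa by 0.47. Hbegf, a ligand of the EGF receptor, fell from 6.53, 8.39 and 5.43 CPM to 2.58, 2.43 and 1.48, and Tgfb1 did not pass (-0.20, adjusted p = 0.125).

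Cytoplasmic ribosomal proteins were higher in 32 of 49 tested genes and lower in 0, with a median log2 fold change of 0.54. Rplp0, of the ribosomal stalk, was at 189.8, 228 and 210.4 CPM in NMO against 132, 121 and 116 in control (0.77 ± 0.09, adjusted p = 0.000902), and Rps9 at 324, 377 and 318 against 213, 216 and 183. Neither overlapped between the groups. In 40 of the 49 genes replicate 2 had the highest NMO value, and with the mean of the neutrophil markers as a covariate 2 of the 32 calls were kept. With library 2 of the NMO group left out 26 were. The summed level of the list was 3697 to 4401 CPM in NMO CD11c- and 2450 to 2864 in control. In the CD11c+ libraries, where the neutrophil markers summed to 24.1 to 28.1 CPM, it was 5007 to 5014. The CD11c+ libraries come from another gate, and what neutrophil RNA adds to the counts of the CD11c- libraries was not tested. Many of these genes have processed pseudogenes of near-identical sequence, and the sources used here do not give how the authors' counting split such reads.

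The largest and the most certain increases also included genes of other functions. Saa3, an acute-phase serum amyloid made by macrophages, was nearly absent from the controls, with 2 reads in all 3 libraries, and stood at 16.7, 35.3 and 34.8 CPM in NMO. The ratio from these counts was 362 (95% interval 99.8 to 2996, from counting error only), and the CD11c+ libraries were at 9.49 and 22.04. Sdc3, the cell surface proteoglycan syndecan-3, was at 311, 301 and 313 CPM against 119.7, 129 and 123 (log2 fold change 1.31 ± 0.07, adjusted p = 1.72e-05). Cd72, a lectin of the B cell and macrophage surface, rose from 11.1, 16.5 and 13.5 to 50.03, 75.8 and 66.6, Helz2, a helicase, from 9.86, 10.9 and 18.4 to 54.9, 77.4 and 59.6, and Npnt, an extracellular matrix protein, from 96.8, 112 and 110.4 to 238, 206 and 216. NMO and control values were separate in all 3. Slc2a6, a hexose transporter of lysosomes, rose by 2.04, Emilin1 by 1.71, Minar1 by 2.09, Cpd, a carboxypeptidase, by 1.06, Ly9 by 0.82 and Lox, which crosslinks collagen, by 2.39. Chst2, a sulfotransferase, stood at 15.3, 15.5 and 17.3 CPM, 4.81, 5.81 and 4.37 in control and 49.5 and 44.4 in the CD11c+ libraries.

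**Figure D3:**
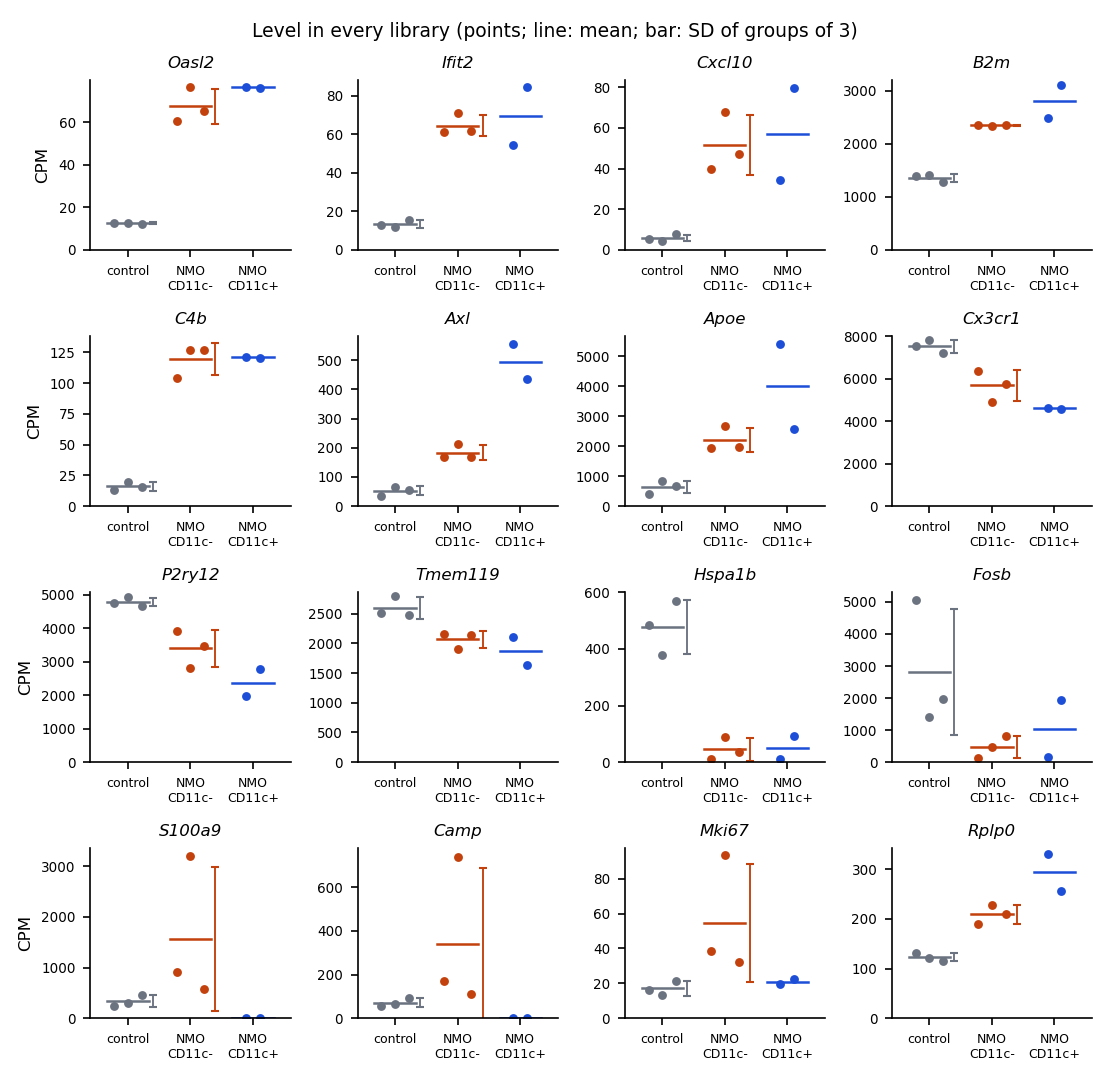
Level in CPM (linear axis from 0) of 16 genes in every library of the control (grey), NMO CD11c- (orange) and NMO CD11c+ (blue) groups; points are libraries, lines are means and bars are SD for the groups of 3. Oasl2, Ifit2, B2m and C4b separate NMO from control with little spread, while S100a9, Camp and Mki67 are highest in 1 NMO library and S100a9 and Camp lie near 0 in both CD11c+ libraries.

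Homeostatic genes had small decreases, with a median log2 fold change of -0.18. Of 30 tested, 6 were lower and 1, Gpr84, was higher, and 13 had all NMO libraries below all controls, an arrangement found in 16.3% of tested genes. The call of Gpr84 was lost with all 8 libraries in 1 fit and with either covariate. P2ry12, the ADP receptor that steers microglial processes, stood at 3905, 2808 and 3478 CPM in NMO and 4752, 4929 and 4677 in control (log2 fold change -0.49 ± 0.12, adjusted p = 0.0284). P2ry13, a related receptor, was at 1184, 834 and 984 against 1579, 1688 and 1521 (-0.67 ± 0.12, adjusted p = 0.0101). In both genes replicate 2, the library with the most neutrophil marker RNA, was the lowest. Cx3cr1, the fractalkine receptor, was at 6382, 4899.9 and 5773 against 7529, 7840.0 and 7204 (adjusted p = 0.0391), Tmem119 at 2163, 1899 and 2133 against 2505, 2802 and 2469.6 (adjusted p = 0.0493), and Slc2a5, a fructose transporter, at 366, 301 and 363 against 549.8, 519 and 465. Jun, the sixth, belongs to the immediate early genes described below. Csf1r, Siglech, Gpr34, Tgfbr1 and Sall1 had log2 fold changes of -0.02, -0.25, -0.22, -0.28 and 0.08 and did not pass. With the neutrophil mean in the fit 0 of the 6 calls were kept, and without NMO replicate 3, control replicate 1 or control replicate 2 the list had 3. In bulk samples fewer cells of a type and less RNA per cell cannot be told apart.

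Transcription factors of microglia mostly did not pass the test. Of 23 tested 1 was lower (4.35%), Etv5 at -0.47, and 0 were higher, against 3.59% and 6.90% of all tested genes. The call of Etv5 was lost in 7 of 18 alternative settings. Spi1, which encodes PU.1, had a log2 fold change of -0.09, Irf8 of 0.06 and Runx1 of -0.04. Among purinergic genes Adora1, an adenosine receptor, rose from 2.96, 2.903 and 2.52 CPM to 11.5, 7.74 and 10.2, P2ry2 by 1.88 and P2rx4, an ATP-gated channel linked to microglial activation, by 0.42, while P2ry12 and P2ry13 fell. In the semaphorin and plexin list Sema4b fell from 66.8, 66.03 and 68.3 CPM to 33.05, 21.2 and 29.1 and Sema6d was lower (log2 fold change -0.85), and Sema4a and Sema4g rose by 1.13 and 0.36.

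Stress-induced genes had the deepest decreases among abundant mRNAs. Hspa1b, an inducible HSP70, stood at 11.1, 87.7 and 36.03 CPM in NMO and 485, 379.7 and 568 in control (log2 fold change -3.41 ± 0.53, adjusted p = 0.00452), and its near-identical neighbour Hspa1a at 4.699, 58.5 and 19.05 against 275, 189.9 and 261. NMO replicate 1 was the lowest in both, and the groups did not overlap. Hsp90aa1, the inducible HSP90, was at 18.9, 27.8 and 40.9 against 101, 67.4 and 80.1, and log2 fold changes were -1.29 for Hsph1 and -0.93 for the constitutive Hspa8. In total 7 of 17 chaperones were lower, with a median log2 fold change of -0.82. Among immediate early and dissociation stress genes 3 of 24 were lower: Jund, Jun and Fosb, members of the AP-1 factor family. Fosb was at 141, 487 and 807 CPM against 5055, 1407 and 1971 (-2.55 ± 0.61, adjusted p = 0.031), Jund at 117, 259 and 242 against 589, 478 and 614 and Jun at 1746, 2990.2 and 3380.2 against 9211, 5430.0 and 6643. Fos (-1.42, adjusted p = 0.0605) and Egr1 (-1.18, adjusted p = 0.0541) had large differences within groups and did not pass.

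These genes varied together across libraries. In 22 of the 24 immediate early genes NMO replicate 1 was the lowest of the 6 libraries, and in 18 control replicate 1 was the highest; for the chaperones the counts were 16 and 15 of 17. The 2 CD11c+ libraries also differed, with Fosb at 164 and 1932 CPM. Such genes are known to respond to the isolation of cells, and the part of isolation in the difference was not tested. With the mean of the immediate early list as a covariate 3 of its 3 calls and 4 of the 7 chaperone calls were kept. Jun, Jund and Fosb enter that mean themselves, and the mean was lower in every NMO library than in every control. The kept calls therefore do not show what isolation adds to the difference. Other genes that fell at least 2-fold included Rgs1, a brake on chemokine receptor signalling, from 864, 494 and 581 CPM to 129, 276 and 391, and Gadd45b, a stress gene, from 26.4, 34.5 and 31.9 to 2.58, 12.3 and 9.302. Mir23a and Mir27a, neighbouring microRNA hairpins of 1 cluster, fell as well (log2 fold changes -2.28 and -1.84); these reads come from long RNA and do not measure the mature microRNAs. The others among the 20 largest decreases were Fam71a (-3.10), Grasp, a scaffold protein of receptors (-2.30), Ccdc162 (-1.83), Slc4a10, a bicarbonate transporter (-1.45), Prlr, the prolactin receptor (-1.43), Hes1, a target of Notch (-1.38), and Fam43a (-1.24). The calls of Rgs1, Fam71a and Prlr were lost in 9 of 18 alternative settings each, and that of Fam43a in 8. Those of Grasp and Ccdc162 were lost in 1 each. Slc4a10 and Prlr are abundant in choroid plexus, whose markers are described at the end.

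The decreases with the smallest p-values were mostly of other genes and were close to 2-fold. Tsc22d1, a TGF-beta-stimulated factor, fell from 28.5, 29.9 and 27.7 CPM to 12.3, 13.04 and 14.5 (log2 fold change -1.11 ± 0.11, adjusted p = 0.000496). Cd164, a sialomucin, went from 1158, 1110.5 and 1088 CPM to 656, 498 and 629.6 and was at 308 and 530.3 in the CD11c+ libraries. Log2 fold changes were -0.88 for Tgm2, a transglutaminase, -0.94 for Gimap6, a GTPase linked to autophagy, -0.82 for Fscn1, an actin bundler, -0.86 for Ccnd1, cyclin D1, and -0.63 for Itga9, an integrin. Control and NMO values were separate in each of these genes. Of 19 tested genes of the unfolded protein and integrated stress response 3 were lower, at smaller sizes: Xbp1, Sdf2l1 and Pdia6 (-0.33, -0.40 and -0.33). None of these 3 calls was kept with either covariate, and leaving out 1 library gave 1 or 2; Pdia6 was lost without any one of the 6.

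RNA of neutrophils was present in all 6 libraries and higher in NMO. Of 22 tested neutrophil markers (30 listed) 11 rose and 0 fell, with a median log2 fold change of 2.01. S100a9, a calcium-binding protein that fills neutrophil cytosol, stood at 911, 3191 and 586 CPM in NMO and 240.3, 308 and 462 in control (2.21 ± 0.55, adjusted p = 0.0338). Camp, a granule antimicrobial peptide, was at 172, 741 and 111 against 54.5, 67.6 and 93.1, and Ly6g, the surface marker of mouse neutrophils, at 12.1, 26.999 and 9.302 against 2.47, 3.98 and 7.55. NMO replicate 2 was the highest NMO library for 19 of the 22 genes, and NMO replicates 1 and 3 lay nearer to the controls in S100a9, Camp and Ly6g. In contrast the NMO libraries, though not the controls, lay closer together for Cxcr2, the neutrophil chemokine receptor, and Mmp9. Cxcr2 rose from 1.23, 2.69 and 3.84 to 10.01, 12.3 and 7.23. Mmp9 rose from 15.04, 23.8 and 48.9 to 72.2, 96.6 and 62.5. The call of Mmp9 was lost in 8 of 18 alternative settings, DESeq2 among them, and that of Cxcr2 in 2. Elane, Mpo and Prtn3, enzymes of granules that form in immature neutrophils, were at 4.85, 35.9 and 2.51, 8.19, 61.6 and 2.95 and 2.73, 26.1 and 1.48 CPM in NMO and did not pass the test. The summed level of the list was 2365 to 12319 CPM in NMO CD11c-, 978 to 2048 in control and 24.1 to 28.1 in the CD11c+ libraries. The count of 11 fell to 6 without NMO replicate 2 and to 1 without control replicate 1 or control replicate 2, and rose to 19 without NMO replicate 3.

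**Figure D4:**
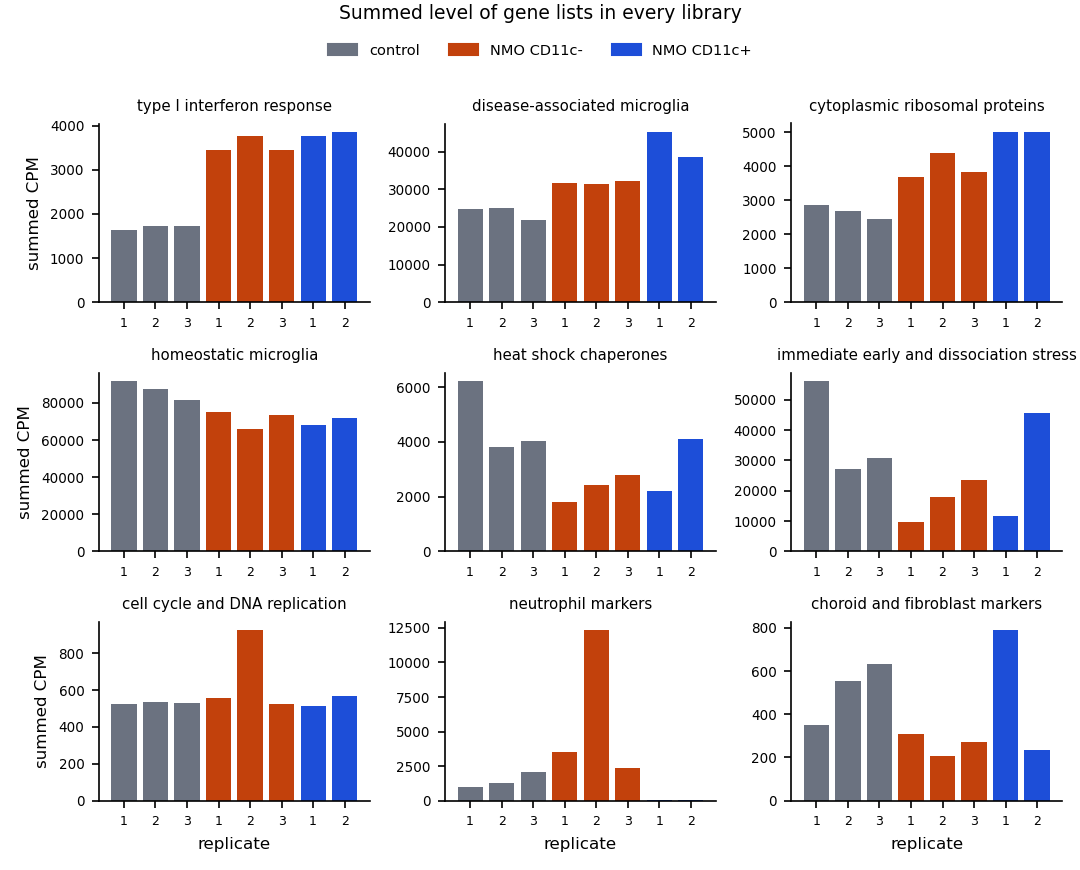
Summed level in CPM (linear axis from 0) of 9 gene lists in each of the 3 control (grey), 3 NMO CD11c- (orange) and 2 NMO CD11c+ (blue) libraries, by replicate. The type I interferon sum is even across NMO libraries, while the neutrophil sum reaches 12319 in NMO CD11c- replicate 2 and lies at 24.1 to 28.1 in the CD11c+ libraries.

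Cell cycle genes were highest in the same library. Of 39 tested genes 15 were higher and Ccnd1 lower, and in 36 replicate 2 was the highest NMO library. Mki67, a mark of cycling cells, stood at 38.4, 93.3 and 32.2 CPM against 16.3, 13.4 and 21.6 in control and 19.4 and 22.4 in the CD11c+ libraries. Top2a, a topoisomerase of mitosis, was at 23.2, 53.1 and 14.5 against 8.75, 9.79 and 11.8, and Cdk1, the mitotic kinase, at 10.2, 12.9 and 7.23 against 3.08, 2.69 and 2.78. With the neutrophil mean as a covariate 0 of the 15 calls were kept, and without control replicate 1 the list had 3. The replication factors Mcm2, Mcm5 and Pcna did not pass (0.41, 0.49 and -0.47). Which cells carried these mRNAs was not tested.

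Markers of monocytes, which share many genes with neutrophils and with activated microglia, were higher in 8 of 20 tested genes, and Ace was lower. Fn1, fibronectin, stood at 40.9, 24.1 and 41.6 CPM against 5.06, 3.66 and 3.97 in control, with replicate 2 the lowest of the NMO libraries. Ms4a4c rose from 1.48, 3.23 and 1.46 to 9.399, 12.1 and 8.56. Ly6c2, a defining gene of inflammatory monocytes, was at 8.49, 39.9 and 6.35 against 3.21, 3.44 and 7.42 and did not pass (adjusted p = 0.0876), nor did Ccr2, the receptor that brings them into tissue (15.6, 12.4 and 11.5 against 7.52, 8.17 and 11.9, adjusted p = 0.129). In the CD11c+ libraries Fn1 and Ms4a4c had 0.64 and 1.16 times their NMO CD11c- level, whereas Ly6c2 had 0.0057 times. The 8 calls were 4 without control replicate 1 and 1 with the neutrophil mean in the fit.

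The level in the CD11c+ libraries was used to sort the 803 genes that rose, because those libraries came from the same disease and held almost no neutrophil marker RNA. The gate on CD11c that chose them can itself set the level of a gene, and the NMO CD11c- libraries enter both the ratio and the fold change, so the ratio is a description. The 2 CD11c+ libraries also differed from each other. In CD11c+ replicate 1 the deviation of a gene from its mean over the 6 libraries rose with its GC content (Spearman correlation 0.60). In CD11c+ replicate 2 this correlation was 0.07, and in the 6 libraries compared it ran from -0.15 to 0.14. What this does to the ratios was not tested. For 720 of the 803 genes (89.7%) the CD11c+ mean was 0.5 to 2 times the NMO CD11c- mean, and for 15 (1.87%) it was more than 2 times. In 27 genes (3.36%) it was 0.25 to 0.5 times and in 41 (5.11%) less than 0.25 times, against 1.15% of all tested genes below 0.25. Of all tested genes 96.4% lay between 0.5 and 2 and 0.962% above 2. A ratio between 0.5 and 2 was thus less frequent among the genes that rose than among all tested genes, and does not set them apart. Of the 418 genes that fell, 400 (95.7%) lay between 0.5 and 2, a share near that of all tested genes, and 0 below 0.25.

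The 41 genes with the lowest ratios were led by granule and cytosolic proteins of neutrophils. Besides the listed markers they held Serpinb1a, an inhibitor of neutrophil elastase, at 18.04, 82.5 and 11.96 CPM in NMO CD11c-, 4.81, 6.34 and 9.67 in control and 0 and 0.178 in CD11c+; Anxa1, a brake on neutrophil migration, at 114, 382 and 74.6, 30.6, 36.9 and 60.4 and 1.24 and 1.07; and Mapk13 at 6.67, 18.4 and 3.99, 0.7398, 1.72 and 2.25 and 0.206 and 0.178. Lin28a, an RNA-binding protein of immature cells, and Cd24a had 0 reads in both CD11c+ libraries, as did Ly6g, which allows up to 0.286 CPM over the group. Gpc1 and Sept1, among the 20 largest increases, belong here too, with ratios of 0.051 and 0.075. In 38 of the 41 genes replicate 2 was the highest NMO library, at a median of 3.44 times the mean of the other 2. With the neutrophil mean in the fit 0 of the 41 calls were kept. The 11 called neutrophil markers are among these 41 genes and enter that mean, so the loss of their calls was built in and is no separate evidence. In the 720 genes between 0.5 and 2 replicate 2 stood at a median of 1.09 times the others and was the highest in 453. Of these 720 calls 131 (18.2%) were kept with the neutrophil mean. C3, Lyz2, Msr1 and Cybb lay near or between these limits, at 0.31, 0.49, 0.46 and 0.52 times, with C3, Lyz2 and Cybb highest in replicate 2.

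**Figure D5:**
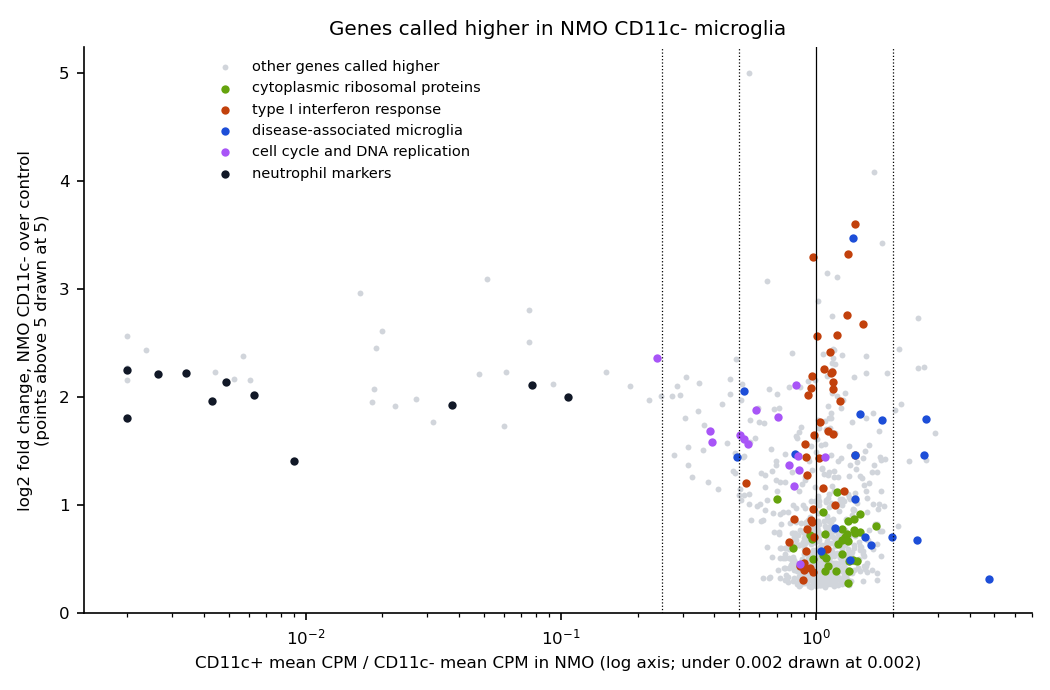
Log2 fold change of NMO CD11c- over control (vertical axis, values above 5 drawn at 5) against the ratio of the CD11c+ to the CD11c- mean level in NMO (horizontal log axis, ratios under 0.002 drawn at 0.002) for the 803 genes called higher, with 5 lists in colour and dotted lines at 0.25, 0.5 and 2. Interferon and ribosomal genes lie around 1, disease-associated genes reach from 0.49 to 4.75, and the 11 neutrophil markers lie below 0.25.

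At the other end 15 genes stood over 2 times as high in CD11c+ as in NMO CD11c- microglia. Itgax had the highest ratio, 4.75, and is the gene of the gate. Chst2 (2.93), Axl (2.70), Cst7 (2.64), H2-Q6 and H2-Q7 (2.52 each), Gpr162 (2.49), Clec7a (2.49) and Il2rg (2.31) followed among genes at 5 CPM or more. On these means they stood higher in NMO CD11c- microglia than in control and higher still in CD11c+ microglia.

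Markers of other cells differed by type. Of 17 listed T cell genes 6, Cd3e and Cd3g among them, had 0 reads in all 6 libraries, which allows up to 0.15 CPM over the NMO group. The list summed to 62.3 to 68.5 CPM in NMO, 48.3 to 60.0 in control and 55.9 to 58.3 in CD11c+, most of it from Il7r, the interleukin-7 receptor. Its 2 tested members did not pass: Il7r was at 63.8, 56.1 and 57.6 CPM against 49.8, 56.8 and 43.96 in control (adjusted p = 0.162) and Cd5 at 1.97, 2.88 and 2.51 against 1.23, 0.538 and 1.99 (adjusted p = 0.163). Of 10 tested dendritic cell markers 3 were higher and 1 lower, against 6.90% and 3.59% of all tested genes. Flt3, a growth factor receptor, rose from 1.36, 2.58 and 1.19 CPM to 5.31, 6.98 and 5.61, Bst2, which is also interferon-induced, from 49.1, 50.003 and 45.6 to 95.2, 127 and 95.4, and Cd24a, which neutrophils also carry, from 3.08, 4.84 and 8.47 to 14.4, 51.9 and 12.4; Fscn1 fell. With the neutrophil mean as a covariate, or the immediate early mean, 1 of the 3 was kept, and the list had 2 without any one of the controls. Of the B cell markers Cd22, a Siglec that microglia also carry, rose by 1.01. Border-associated macrophage markers were higher in 4 of 12 genes (33.3%): Dab2 by 0.75, Cd36 by 1.41, Folr2 by 1.73 and Ms4a7 by 1.62, while Mrc1 (0.48, adjusted p = 0.162), Lyve1 (0.17) and Cd163 (0.75) did not pass. None of the 4 calls was kept with the neutrophil or the immediate early mean in the fit, and leaving out 1 library gave 3 to 6, the highest without control replicate 2. The list's sum was 1605 to 1721 CPM in NMO and 1612 to 1663 in control. Of 5 tested choroid plexus and fibroblast markers 2 fell (40%): Ttr, transthyretin, stood at 266, 185 and 229 CPM against 303, 469 and 547 in control and 673 and 215 in CD11c+, and Clic6 at 10.3, 7.74 and 9.01 against 10.97, 20.6 and 19.9. Enpp2 (219.8, 104 and 187 against 261, 438 and 449) and Clu (10.01, 4.85 and 9.74 against 11.8, 21.1 and 21.7), listed with oligodendrocytes and astrocytes and also abundant in choroid plexus, followed the same order of libraries, with control replicates 2 and 3 the highest of the 6. The 2 calls of the choroid list were 0 without control replicate 2 or control replicate 3, 0 with the neutrophil mean in the fit, and 4 without control replicate 1. The myelin gene Mbp had a log2 fold change of 0.04 and did not pass.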

How the data were processed

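The values are gene counts as deposited by the authors, 1 table per library. Per the submitters' processing notes the build was GRCm38, and STAR 2.3.11, HTSeq 0.5.4 and edgeR 3.12.0 were used; strand setting and annotation: not given in the sources used here. Symbols came from GENCODE M21. Identifiers without a symbol (1048, with 0.0935% of counts) stayed in the fit.

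The 6 libraries compared were fitted alone with edgeR 4.0.16 (R 4.3.3): filterByExpr with a minimum count of 10, TMM scaling, glmQLFit and glmQLFTest (residual degrees of freedom 4, prior 5.46), and Benjamini-Hochberg adjustment over 11646 genes. CD11c+ libraries were scaled to the same reference. CPM use the scaled library size, and intervals at 95% and floors of 3 counts cover counting error only. 0 columns of per-sample values were left unused. The fit was tested on simulated data: it gave no planted change the wrong direction, but the share of false calls was well above the nominal level.

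The genes, the 54 lists and the tests were chosen with earlier results of these data known. Genes are named by rule: 10 identity genes; the 20 largest changes per direction among called genes at 5 CPM or more with separate groups; up to 6 members per list and 5 per cell type list; the 10 lowest and highest CD11c+ to CD11c- ratios; and 15 genes per direction in no list. Other list members and genes named, among them those given as not passing, were picked once their values had been seen. Some genes that the rule names are not reported here. Among called genes 238 share exonic bases with another coding gene, among them Irf7, Irf9, Cxcl10, Cxcl16, Tap1, P2ry12, Hspa1a, Grn, Cd72, Ciita, Ctsb, Gpc1, Sept1, Adora1 and Il2rg; Csf1r does too. Near-identical copies (Oas1a, the Ifit, Ifi200, Gbp and H2-Q families, Hspa1a and Hspa1b) may share reads. Alternatives were other scalings, filters, DESeq2 1.42.0, the edgeR exact test, limma 3.58.1 voom, all 8 libraries in 1 fit, a covariate holding the mean log2 CPM of the neutrophil or the immediate early list, GC and length offsets, and each library left out in turn.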

Additional observations from a re-analysis of the deposited data

How the results depend on the processing

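No paired analysis was possible because the replicate numbers follow the order of deposit and pair no library with another. The 803 genes that rose were 434 to 714 and the 418 that fell 142 to 288 when 1 library was left out. With all 8 libraries they were 360 and 86, with the neutrophil mean as a covariate 139 and 25, with the immediate early mean 322 and 96, and without a filter those that fell were 713. The neutrophil mean and the immediate early mean themselves differed between the groups, so each covariate also takes up part of the difference under study. Higher genes made up 65.8% of calls, and 84.8% with the neutrophil covariate, 80.7% with all 8 libraries and 77.0% with the immediate early covariate.

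The type I interferon count of 45 stayed within 1.5 times under every alternative run, at 30 to 45. Leaving out 1 library gave 3 to 6 lower homeostatic genes, 13 to 18 higher disease-associated, 12 to 15 MHC class I, 22 to 31 ribosomal, 3 to 19 cell cycle, 1 to 19 neutrophil and 4 to 12 monocyte genes, and 2 to 7 lower immediate early genes and 7 to 8 chaperones. The neutrophil covariate left 0 homeostatic, 11 disease-associated, 7 MHC class I, 2 ribosomal, 0 cell cycle, 0 immediate early, 2 chaperone, 0 neutrophil and 1 monocyte genes. The neutrophil markers form that covariate themselves. The immediate early covariate left 3 homeostatic, 10 disease-associated, 1 cell cycle, 4 chaperone, 0 neutrophil and 3 monocyte genes. With all 8 libraries there were 2 homeostatic, 17 ribosomal, 7 cell cycle, 1 immediate early and 2 neutrophil genes. Without a filter there were 23 cell cycle, 15 immediate early, 14 chaperone, 23 neutrophil and 16 monocyte genes. The exact test gave 10 immediate early, 11 chaperone, 20 neutrophil and 14 monocyte genes, DESeq2 10 homeostatic and 4 neutrophil genes, voom 9 cell cycle and 7 neutrophil genes, and GC and length offsets 5 immediate early genes.

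Of 173 called genes named in the text, 65 kept their call under all alternatives and 108 lost it under at least 1. Camp, Serpinb1a and Lcn2 changed sign with the neutrophil covariate, to -0.18, -0.14 and -0.10. Of 55 named genes that did not pass, 17 passed under at least 1 alternative. Apart from the alternatives' own construction, the causes were not tested. With 3 libraries per group and 6437516 to 9246061 counted reads each, genes at a few CPM, such as Ciita, were measured with little precision.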

Other observations

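Of 8 tested acute-phase genes 6 were higher, with a median log2 fold change of 2.01 against -0.006 over all tested genes. The count was 3 without any one of the controls and 3 were kept with either covariate. Cp, ceruloplasmin, a copper-carrying ferroxidase, stood at 25.6, 27.5 and 24.95 CPM in NMO CD11c- and 5.302, 9.46 and 6.09 in control, and Fgl2, a prothrombinase of activated macrophages, at 68.4, 71.3 and 64.2 against 17.1, 22.7 and 23.7. Lcn2 and Hp, from the same list, were at 0.0049 and 0.0044 times their CD11c- level in the CD11c+ libraries, while Cp and Fgl2 were at 0.68 and 1.11 times.

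Of 12 tested chemokine receptors 3 were higher, Ccr1, Cxcr4 and Cxcr2, with none kept under either covariate and 1 without control replicate 1. Ccr1, a receptor for Ccl3 and Ccl5, rose from 15.4, 23.2 and 19.2 CPM to 40.5, 36.9 and 27.8, and Cxcr4, the receptor of CXCL12, from 1.36, 1.72 and 3.71 to 6.06, 17.9 and 5.46. Their CD11c+ levels were 0.61 and 0.35 times those of NMO CD11c- microglia. Itgal, an integrin of leukocytes in general, was at 15.01, 34.9 and 13.9 CPM against 5.06, 7.63 and 11.4, with replicate 2 far above the others. Its call was lost in 10 of 18 alternative settings, DESeq2, voom and both covariates among them, and the 3 higher calls among 16 integrins were 0 without control replicate 1 or control replicate 3. In NF-kappaB signalling 4 of 24 genes were higher, led by Ikbke, a kinase upstream of interferon factors, at 6.82, 19.7 and 6.496 against 2.96, 2.58 and 3.31 and Bcl3 at 10.2, 12.4 and 9.597 against 5.302, 4.73 and 5.43; the count was 0 with the neutrophil mean as a covariate, 1 with all 8 libraries and 2 without any one of the controls. Of 44 nuclear genes of oxidative phosphorylation 2 were higher, Cox4i1 by 0.69 and Uqcrh by 0.73 on the log2 scale, a share below the 6.90% of all tested genes.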
